A study of Mus musculus with 43 samples.

Results

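Most of the 37 protein-coding mouse genes whose symbols begin with Ube2 encode ubiquitin-conjugating enzymes and close relatives. All 37 were taken by symbol alone from a RefSeq table of the mm10 assembly (GRCm38.p6), in which 21521 protein-coding genes were used. No measured value decided which genes were members, although earlier results of these data were known when the genes were chosen. Chromatin immunoprecipitation (ChIP) of EKLF, the erythroid zinc-finger activator encoded by Klf1, had been sequenced from E13.5 fetal liver, where most red cells are being made. One group was wild type (WT, labelled as WT of the Nan strain), and the other was heterozygous for Nan (Nan/+), a Klf1 allele that changes a zinc finger, so these embryos also carried 1 normal Klf1 copy. Each genotype had 3 ChIP libraries, which the series describes as biological replicates from littermate livers. The labels give the cell type as primary erythroid, while the protocol describes whole dispersed livers with no sorting step. The comparison asked which Ube2 genes had called EKLF regions in each genotype, and where those regions lay.

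Ubiquitin is activated by an E1 enzyme, passed to an E2 (conjugating) enzyme, and attached to a target with the help of an E3 ligase. The E2 enzymes influence which ligases are served and which chain types are built, and some relatives carry SUMO, NEDD8 or ISG15 instead of ubiquitin. Maturing red cells clear ribosomes, organelles and unpaired proteins. Ube2o, a large enzyme with both E2 and E3 activity, marks ribosomal and other proteins for removal in reticulocytes. Ube2h serves the CTLH ligase, whose subunit Maea is needed for erythroblast maturation, and Ube2l6 is an E2 for ISG15 and ubiquitin that is abundant in late erythroid cells.

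The deposited data were 1 list of called regions per genotype, with 9181 regions in WT and 15564 in Nan/+. Each list was called on 3 ChIP libraries together, which held between 72023512 and 103170594 tags. The lists give positions but no strength and no value per replicate. Differences between them therefore have no replicate check, no test of genotype was possible, and a region missing from a list may lie just under its calling threshold. In bulk chromatin, occupancy in fewer cells and weaker occupancy per cell cannot be told apart. A region was assigned to a gene when its centre lay in the gene body or within 10 kb of either end. The smallest WT regions were 126 bp wide and the smallest Nan/+ regions 176 bp, each set by the authors' calling size, and 8481 of the Nan/+ regions had that smallest width. Widths in the lists thus come from different calling settings.

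Sequences upstream of 4 Ube2 starts are given as examples of starts called in WT alone and in both lists. Ube2l6 and Ube2c had a WT region and no Nan/+ region over the start, whereas Ube2h and Ube2d3 had both. Each line below gives the 250 bases before the most upstream RefSeq start (GRCm38.p6), 5′ to 3′ on the gene's strand. Capitals mark the CACCC-type letters CCNCNCCC, on either strand, which resemble the sites that EKLF binds.
Ube2l6 (chr2:84798578-84798827, plus strand): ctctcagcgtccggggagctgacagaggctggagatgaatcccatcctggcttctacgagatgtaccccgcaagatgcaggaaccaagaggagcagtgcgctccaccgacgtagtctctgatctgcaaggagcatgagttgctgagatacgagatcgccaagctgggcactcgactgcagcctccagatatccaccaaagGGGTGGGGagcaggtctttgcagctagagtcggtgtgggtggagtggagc
Ube2c (chr2:164769679-164769928, plus strand): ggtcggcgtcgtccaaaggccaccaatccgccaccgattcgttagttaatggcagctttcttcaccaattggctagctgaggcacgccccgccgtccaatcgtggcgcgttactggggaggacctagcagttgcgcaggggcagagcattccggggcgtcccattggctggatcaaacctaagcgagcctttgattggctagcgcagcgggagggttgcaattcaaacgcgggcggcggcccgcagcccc
Ube2h (chr6:30304540-30304789, minus strand): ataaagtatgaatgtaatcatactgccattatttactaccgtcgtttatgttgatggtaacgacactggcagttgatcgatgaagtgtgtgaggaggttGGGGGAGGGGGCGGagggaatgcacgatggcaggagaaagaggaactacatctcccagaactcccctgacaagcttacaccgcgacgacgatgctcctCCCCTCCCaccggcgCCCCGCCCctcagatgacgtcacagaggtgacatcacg
Ube2d3 (chr3:135437982-135438231, plus strand): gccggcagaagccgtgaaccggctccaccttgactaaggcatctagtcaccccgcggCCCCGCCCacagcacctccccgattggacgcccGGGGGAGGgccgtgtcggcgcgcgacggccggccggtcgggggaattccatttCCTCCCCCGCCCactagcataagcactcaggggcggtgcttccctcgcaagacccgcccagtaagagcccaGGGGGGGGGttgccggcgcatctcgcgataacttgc

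In the Ube2l6 stretch the WT region covered all 250 bases and held 1 match. The WT region at Ube2c covered 80 of the 250 bases, and the stretch held 0 matches. At Ube2h the WT region covered 171 bases and the Nan/+ region all 250, with 5 matches in the stretch. At Ube2d3 both regions covered all 250 bases, which held 6 matches. The Ube2h window overlapped the annotated lncRNA gene 1700095J07Rik and the Ube2d3 window the lncRNA gene 4930539J05Rik. These starts are examples and do not stand for the rest. Of the other starts with a WT region alone, Ube2r2 had 6 matches in its 250 bases and the rest 0 to 2. Ube2v1 and Ube2z, with both, had 3 and 2. Starts with no region ranged from 0 (Ube2j1) to 6 (Ube2n). A link between matches and lists was not tested. A match is a description of letters, not a measured binding site.

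Most Ube2 genes had an EKLF region in at least 1 list. In WT 21 of 37 (56.8%) had a region, against 33.5% of all protein-coding genes, and in Nan/+ 26 (70.3%) against 37.5%. Longer genes have more room for regions, and median length was 30.4 kb among the Ube2 genes and 17.4 kb among all genes. Weighting all genes to the length deciles of the Ube2 genes gave 35.8% in WT and 40.8% in Nan/+, so the count of Ube2 genes stood above the length-weighted share for both lists. Expressed and silent genes were not separated here, since the lists hold no expression values. In all, 7 Ube2 genes had no region in either list, namely Ube2q1, Ube2j1, Ube2u, Ube2d1, Ube2e2, Ube2dnl1 and Ube2dnl2.

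**Figure D1:**
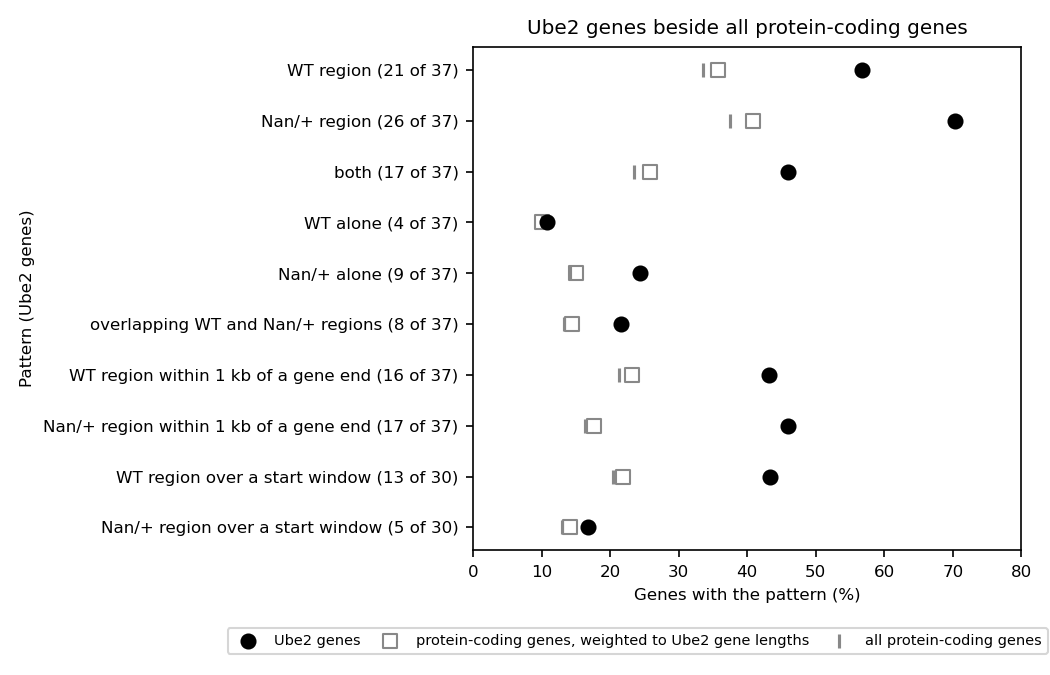
Percentage of Ube2 genes (filled circles), of all protein-coding genes (ticks) and of protein-coding genes weighted to the Ube2 gene lengths (open squares) with each pattern of EKLF regions, with the number of Ube2 genes in brackets. The Ube2 share is above both others for a region in either list (56.8% in WT and 70.3% in Nan/+) and near them for a region in WT alone (10.8%).

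Regions in both lists were found at 17 Ube2 genes (45.9%), against 23.5% of all genes and 25.8% after length weighting. A WT region without a Nan/+ region occurred at 4 (10.8%), which is close to the 10.1% of all genes. These were Ube2l6, Ube2t, Ube2j2 and Ube2w. The reverse was seen at 9 (24.3%), against 14.1% of all genes and 15.0% after length weighting. Those were Ube2g2, Ube2d2b, Ube2e1, Ube2q2, Ube2ql1, Ube2s, Ube2a, Ube2n and Ube2v2. Having regions in both lists did not mean having them at the same place, because WT and Nan/+ regions overlapped by at least 1 bp at only 8 genes (21.6%; 13.3% of all genes and 14.5% after length weighting). Ube2d2a, Ube2d3, Ube2h, Ube2l3, Ube2o, Ube2v1 and Ube2z were among them.

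Counted as regions, the Ube2 genes held 50 from WT and 79 from Nan/+ over 2.36 Mb searched. That made 21.2 WT and 33.5 Nan/+ regions per Mb, against 8.57 and 11.9 per Mb over all genes. The Nan/+ list was the longer one throughout the genome, and its excess was 1.58-fold at Ube2 genes and 1.39-fold over all genes. More Nan/+ than WT regions were counted at 20 Ube2 genes (54.1%; 23.0% of all genes) and more WT regions at 7 (18.9%; 15.2% of all genes), with 3 equal. These shares include genes with no region in either list, which were 7 of 37 Ube2 genes but 11277 of all 21521 genes. Over all genes 4953 had more Nan/+ regions, 3276 more WT regions and 2015 equal numbers. The shares of all genes are thus not like for like, and they were not weighted by length. Of the WT regions 12 (24.0%, exact Clopper-Pearson 95% interval 13.1 to 38.2%) overlapped a Nan/+ region, and over all genes 26.0% did. Of the Nan/+ regions 13 (16.5%, interval 9.06 to 26.5%) overlapped a WT region, and over all genes 16.4% did. The intervals cover counting error only and treat regions as independent, although 4 of the 12 overlapping WT regions lay at Ube2h. They may thus be too narrow, and no conclusion is drawn from them. Both shares were near those over all genes. Median width was 497 bp for the WT regions and 221 bp for the Nan/+ regions, against 405 and 176 bp over all genes. The smallest Nan/+ width was found in 32 of the 79 (40.5%), against 51.9% over all genes.

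**Figure D2:**
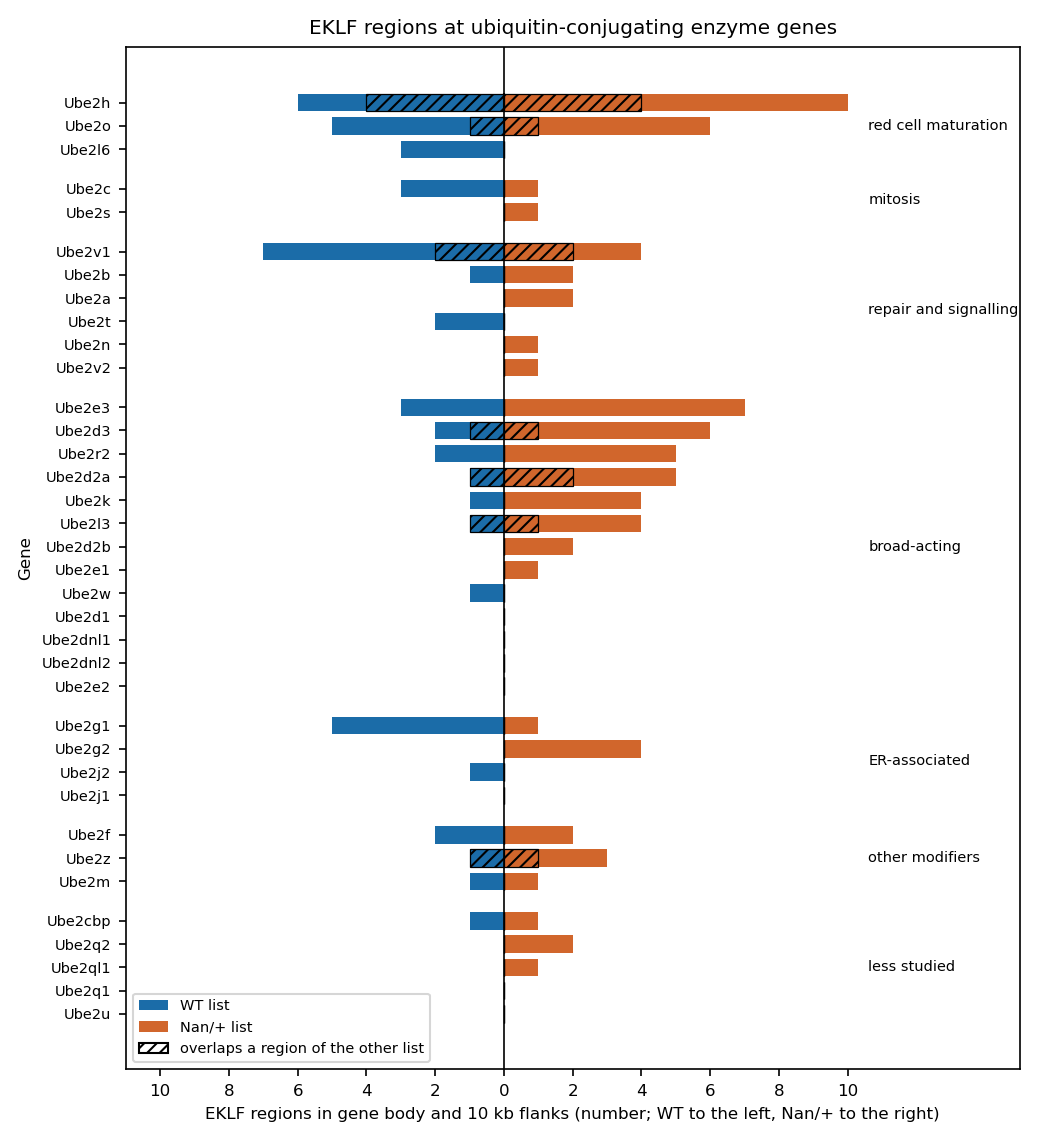
Number of EKLF regions assigned to the Ube2 genes shown, with WT to the left and Nan/+ to the right, grouped by enzyme role; hatched parts are regions that overlap a region of the other list. Ube2h has the longest Nan/+ bar (10 regions) and Ube2v1 the longest WT bar (7), and 7 genes have no bar.

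The lists differed in where the regions lay relative to gene starts. Starts with strand were available for 30 of the 37 genes, and the rest included Ube2w, Ube2e3, Ube2g2, Ube2o, Ube2v2 and Ube2d2a. A WT region overlapped the window from 250 bases before to 50 bases after a start at 13 of 30 (43.3%; 20.4% of all genes and 21.9% after length weighting). A Nan/+ region did so at 5 of 30 (16.7%), near the 13.0% of all genes and the 14.1% after length weighting. The 4 genes with both were Ube2d3, Ube2h, Ube2v1 and Ube2z. At 9 genes the start carried a WT region only, namely Ube2b, Ube2c, Ube2cbp, Ube2f, Ube2g1, Ube2k, Ube2l6, Ube2m and Ube2r2, and at Ube2a a Nan/+ region only. This depends on the start listed and on the narrow window. The listed start of Ube2b lies inside the gene, and 2 Nan/+ regions lay within 1 kb of its upper-coordinate end. At Ube2k a Nan/+ region was centred 485 bp from the start, outside the window. Thus 69.2% of the Ube2 starts with a WT region had none from Nan/+, and the same held for 60.6% of such starts over all genes. Absence of a WT start region from the Nan/+ list was thus common across the genome, and its share at Ube2 genes rests on 13 starts.

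Of the 39 WT regions at genes with a known start, 14 (35.9%) were centred within 1 kb of it, and of the 54 Nan/+ regions 8 (14.8%). Over all genes, with each region set against every gene it was assigned to, the shares were 40.9% and 21.8%, so the lists differed in the same direction there. The median distance from region centre to start was 3963 bp in WT and 10310.5 bp in Nan/+, against 3868.5 and 12564 bp over all genes. With either gene end counted, without regard to strand, the lists differed less. A WT region lay within 1 kb of an end at 16 of the 37 genes (43.2%; 21.3% of all genes and 23.2% after length weighting). A Nan/+ region did so at 17 (45.9%; 16.3% of all genes and 17.7% after length weighting). Counted per region, the Ube2 genes did not stand above all genes in WT, where 17 of 50 regions (34.0%) lay within 1 kb of an end of their own gene, against 40.0% over all genes. In Nan/+ 21 of 79 (26.6%) did, against 22.7%. The gene counts depended on the distance allowed, more so for Nan/+. A region touched the end itself at 12 genes in WT and at 8 in Nan/+, where regions were narrower. Shares over all genes for that setting are not reported here.

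CACCC-type letters were common at Ube2 starts whether or not EKLF was called there. In windows of 300 bases (250 before and 50 after the most upstream start) CCNCNCCC was found on either strand in 25 of 30 Ube2 genes (83.3%), against 56.4% of 17274 genes. The share was 76.9% (10 of 13) with a WT region over the window and 88.2% (15 of 17) without. Over all genes it was higher with a WT region (76.2%) than without (51.7%). The GC form CCNNGCCC was found in 70.0% of Ube2 windows and 47.8% of all, and it overlaps CCNCNCCC in letters, with both in 39.9% of all windows. The narrower CCACACCC occurred in 1 Ube2 window, that of Ube2dnl2 (3.33%; 3.69% of all), and the GATA letters AGATAA in 0 (9.99% of all). Median GC content was 63.5% in Ube2 windows and 56.3% in all, and its part in the motif shares was not tested.

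The red cell group, Ube2h, Ube2o and Ube2l6, held 14 WT and 16 Nan/+ regions, and its members differed in pattern. Ube2h (chr6:30211289-30304539) had 6 WT and 10 Nan/+ regions, and 4 of the WT regions overlapped Nan/+ regions, the most for any Ube2 gene. At its start a WT region of 443 bp and a Nan/+ region of 481 bp shared 355 bp. Further upstream a 605 bp WT region (chr6:30307580-30308184) lay wholly inside a Nan/+ region of 1391 bp (chr6:30306800-30308190), the widest region at any Ube2 gene. Another pair lay inside the gene, with 161 bp in WT contained in 321 bp in Nan/+. The last pair, 504 bp in WT and 220 bp in Nan/+, shared only 6 bp. The remaining 2 WT and 6 Nan/+ regions at Ube2h lay inside the gene at different places, and 3 of the Nan/+ ones had the smallest width. Ube2h thus had overlapping regions of both lists at the start, upstream and in the body. The body also held regions called in 1 list alone.

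Ube2o (chr11:116537740-116581503) had 5 WT and 6 Nan/+ regions, of which 1 pair overlapped. In that pair a 488 bp WT region (chr11:116534021-116534508) lay inside an 811 bp Nan/+ region (chr11:116533803-116534613), in the flank that Ube2o shares with Sphk1. A WT region in the same flank (353 bp) was also within 1 kb of an end of Sphk1. Inside the gene 3 WT regions of 161, 291 and 481 bp and 4 Nan/+ regions of 176 to 323 bp lay apart from each other. The nearest of these WT regions to a Nan/+ region was 1425 bp away. When each region went to its nearest gene only, Ube2o kept 3 WT and 4 Nan/+ regions, so the count stayed similar between the lists.

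Ube2l6 (chr2:84798828-84810003) was the opposite case, with 3 WT and 0 Nan/+ regions. The region over its start was 1036 bp wide (chr2:84798491-84799526), among the widest WT regions at Ube2 genes. A 284 bp region lay inside the gene and a 608 bp region in the flank beyond it, both also within reach of Smtnl1. The nearest Nan/+ region to the start region was 27317 bp away.

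The pair that drives mitotic exit with the anaphase-promoting complex (APC/C) also differed. Ube2c (chr2:164769929-164772902), which starts chains on cyclins, had 3 WT regions and 1 Nan/+ region. Its WT regions were 726 bp in the upstream flank, 599 bp over the start and 820 bp beyond the other end. The 226 bp Nan/+ region lay only 20 bp from the last of these, and it did not count as overlapping. All of these regions were also within reach of Dnttip1, and all but the 726 bp one within reach of Tnnc2. When each region went to its nearest gene only, Ube2c kept 2 WT regions and 1 Nan/+ region. Ube2s, which extends those chains, had 0 WT regions and 1 Nan/+ region of the smallest width, 519 bp beyond the lower-coordinate gene end.

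**Figure D3:**
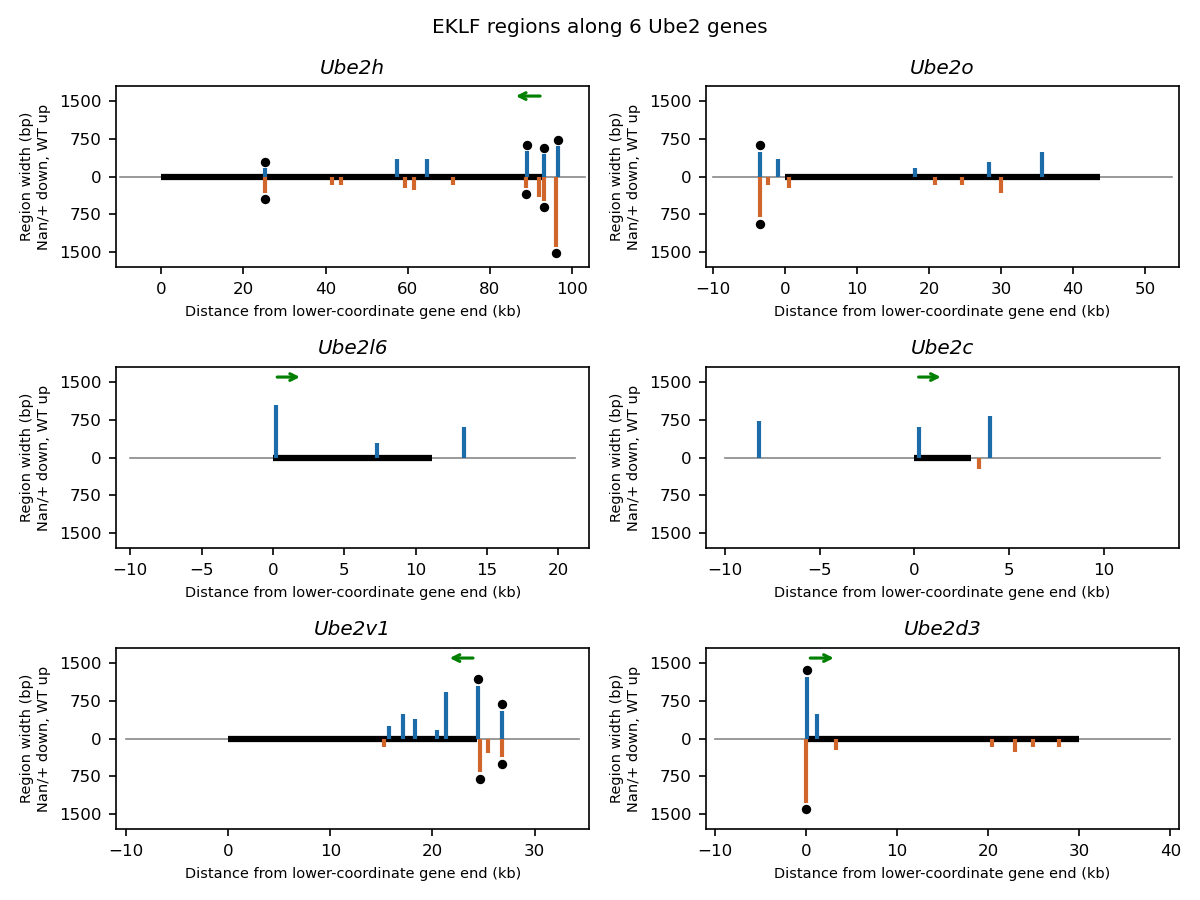
EKLF regions along 6 Ube2 genes, with the distance of each region's centre from the lower-coordinate gene end (kb) on the horizontal axis and region width (bp) as bar height, WT upwards and Nan/+ downwards; the thick line is the gene, the arrow its start and direction where known, and dots mark regions that overlap the other list. Ube2h, Ube2v1 and Ube2d3 have overlapping regions at the start, and Ube2l6 and Ube2c have a WT bar alone there.

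In the repair and signalling group 3 of 6 genes had a WT region and 5 a Nan/+ region, with 10 regions from each list. Ube2v1 (chr2:167607639-167632020), a partner of Ube2n that lacks a catalytic cysteine, had 7 WT and 4 Nan/+ regions. Its start carried 1045 bp in WT and 674 bp in Nan/+, which shared 642 bp, and a second pair of 557 and 367 bp lay upstream. The 5 further WT regions lay in the gene body on the side of the start, where the Nan/+ list had 1 region of the smallest width. Ube2v2, the close relative of Ube2v1, had only a 224 bp Nan/+ region at a gene end, and Ube2n a smallest-width Nan/+ region that was also at an end of Nudt4.

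Ube2a and Ube2b, the mouse versions of yeast Rad6, which act in DNA repair and histone ubiquitination, split between the lists. Ube2a had 2 Nan/+ regions, 361 bp over the start and 223 bp just inside the gene, and the nearest WT region was 210071 bp from the second. Ube2b had a 783 bp WT region over its listed start, shared with Cdkl3, and 2 Nan/+ regions of 351 and 331 bp at the upper-coordinate end of the gene, upstream of that start. Ube2t, the E2 of the Fanconi anaemia pathway, had 2 WT regions (230 and 643 bp) and no Nan/+ region. Both lay over 5 kb upstream, next to Ppp1r12b, so they were no longer assigned to Ube2t with a flank of 5 kb.

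The 13 genes grouped as broadly acting, among them the short genes Ube2dnl1 and Ube2dnl2, held 11 WT and 34 Nan/+ regions. Over all genes the ratio of Nan/+ to WT regions was 1.39, and whether this group differs from it was not tested. Ube2d3 (chr3:135438232-135468214), one of the most widely used E2 enzymes, had 2 WT and 6 Nan/+ regions. At its start the WT region was 1225 bp wide, the widest WT region at a Ube2 gene, and the Nan/+ region 1275 bp, with 1130 bp shared. The other 5 Nan/+ regions lay further inside the gene and 3 of them had the smallest width. Its near-identical relative Ube2d2a, with 1 WT and 5 Nan/+ regions, also had occupancy in both lists at a gene end, where a 672 bp WT region overlapped Nan/+ regions of 321 and 624 bp. Ube2d2b, a single short gene, had 2 Nan/+ regions of 270 and 176 bp in a flank that is also within the range of Evi5, and Ube2d1 had none.

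Ube2e3 (chr2:78868236-78928786) had 3 WT and 7 Nan/+ regions and no overlap, although 1 Nan/+ region lay 709 bp and another 903 bp from a WT region. Its relative Ube2e1 had 1 Nan/+ region of 220 bp in a flank, and Ube2e2, the longest Ube2 gene at 320722 bp, had none. Ube2r2 (chr4:41136021-41193370), which extends chains for cullin ligases, had a 973 bp WT region over the start and a 499 bp WT region inside the gene. All 5 of its Nan/+ regions had the smallest width, so it would count as WT alone if those were set aside.

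Ube2k, which can build chains by itself, had a 630 bp WT region over the start it shares with Smim14 and 4 Nan/+ regions of 176 to 310 bp, the nearest 236 bp away. Ube2l3, the partner of Parkin and related ligases, had 1 WT and 4 Nan/+ regions. Its only overlapping pair (526 and 221 bp) lay in the flank at the ends of Ccdc116 and Ydjc and not at its own start. Ube2w, which modifies the first residue of proteins, had a single 259 bp WT region at a gene end.

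Among the enzymes of protein quality control at the endoplasmic reticulum (ER), Ube2g1 and Ube2g2 differed in direction. Ube2g1 (chr11:72607261-72686481) had 5 WT regions and 1 Nan/+ region. A 750 bp region covered its start, a 515 bp and a 159 bp region followed inside the gene, and the 242 and 267 bp regions beyond it lay at an end of Ankfy1. Ube2g2 (chr10:77622321-77645990) had 0 WT and 4 Nan/+ regions of 176 to 284 bp. Of these, 3 also lay within 10 kb of Sumo3 and 2 were within 1 kb of the lower-coordinate end of Ube2g2. Ube2j2 had 1 WT region of 399 bp, at an end of C1qtnf12, and Ube2j1 had none.

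All 4 enzymes that carry other modifiers or use another E1 had regions in both lists, as did 23.5% of all genes. Ube2z, which receives ubiquitin from Uba6, had a 546 bp WT and a 458 bp Nan/+ region over its start that shared 331 bp, and 2 further Nan/+ regions of the smallest width. The NEDD8 enzymes Ube2m and Ube2f each had a WT region over the start, 586 and 656 bp wide, with no Nan/+ region there. Ube2m had 1 Nan/+ region near the opposite end, at Chmp2a, and Ube2f had 2 inside the gene. When each region went to its nearest gene only, Ube2m kept 1 WT and 0 Nan/+ regions.

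Among the 5 less studied genes, Ube2cbp, included for its symbol and not as a conjugating enzyme, had a 365 bp WT region at its start. It also had a smallest-width Nan/+ region inside the gene. Ube2q2 had 2 Nan/+ regions of 176 and 237 bp and Ube2ql1 had 1 of 176 bp. Together the 5 genes had 1 WT and 4 Nan/+ regions.

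Neighbouring genes shared part of this occupancy. Of the regions assigned to Ube2 genes, 20 of 50 from WT (40.0%) and 27 of 79 from Nan/+ (34.2%) also fell within the range of another protein-coding gene. In WT 6 and in Nan/+ 2 regions lay within 1 kb of another gene's end and not of the Ube2 gene's own. The WT ones include the Ube2b region over its listed start, which lies inside the gene and not at its end. Position alone does not say which gene a region acts on.

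The other genes of ubiquitin and ubiquitin-like conjugation were read from 11 lists with 108 genes apart from the Ube2 family. Of these, 78 (72.2%) had a WT region and 74 (68.5%) a Nan/+ region, with 20 in WT alone (18.5%) and 16 in Nan/+ alone (14.8%). The first 2 shares are above the 33.5% and 37.5% of all genes. The share in WT alone is above the 10.1% of all genes and the share in Nan/+ alone near their 14.1%. Thus a share above that of all genes was not confined to the Ube2 family. Of 9 E1 genes 7 had a WT and 5 a Nan/+ region. Among them Uba7, the E1 that charges Ube2l6 with ISG15, had 7 WT and 3 Nan/+ regions, and Sae1, a subunit of the SUMO E1, had 1 and 4. Among 11 genes of ubiquitin and other modifiers the counts were 7 and 6, and Sumo2 had 3 WT regions and 1 Nan/+ region. All 7 E2 genes with other names had a WT region and 5 a Nan/+ region, led by Birc6, a giant E2 that restrains cell death, with 1 and 6.

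The CTLH ligase, which works with Ube2h, had a WT region at 8 and a Nan/+ region at 9 of its 11 genes. Ranbp10 had 9 regions in each list, while Mkln1, a scaffold subunit, had 2 in WT and 12 in Nan/+. Maea, one of the RING subunits, had 0 WT regions and 1 Nan/+ region. Of the 16 APC/C genes, partners of Ube2c and Ube2s, 11 had a region in each list. Fzr1, the activator of late mitosis and G1, had 8 WT and 2 Nan/+ regions, and the core subunit Cdc27 had 0 and 4. These ligases thus held genes with an excess in either list.

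Of 9 genes of ER-associated degradation 8 had a WT and 6 a Nan/+ region. The ligase Syvn1 had 3 WT and 0 Nan/+ regions, and Marchf6 2 and 5. The repair ligases and related repair genes, among them Fancd2 and Fanci, had regions at 6 and 8 of 11 genes, with Rnf8 at 3 and 1. For SUMO ligases and proteases the counts were 9 and 9 of 12, led by Pias4 with 5 WT and 4 Nan/+ regions, and the protease Senp6 had 0 and 4. The neddylation partners had regions at 9 and 10 of 13 genes. The scaffold Cul3 had 2 WT and 14 Nan/+ regions and Dcun1d1, which promotes cullin neddylation, 1 and 6. The ISG15 partners had regions at 1 and 2 of 3 genes, with Usp18, the ISG15 protease, at 0 and 2. Of 6 genes of Parkin and related ligase complexes 5 had a WT and 3 a Nan/+ region, with Arih1 at 5 and 7 and Rnf31 at 3 and 0.

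**Figure D4:**
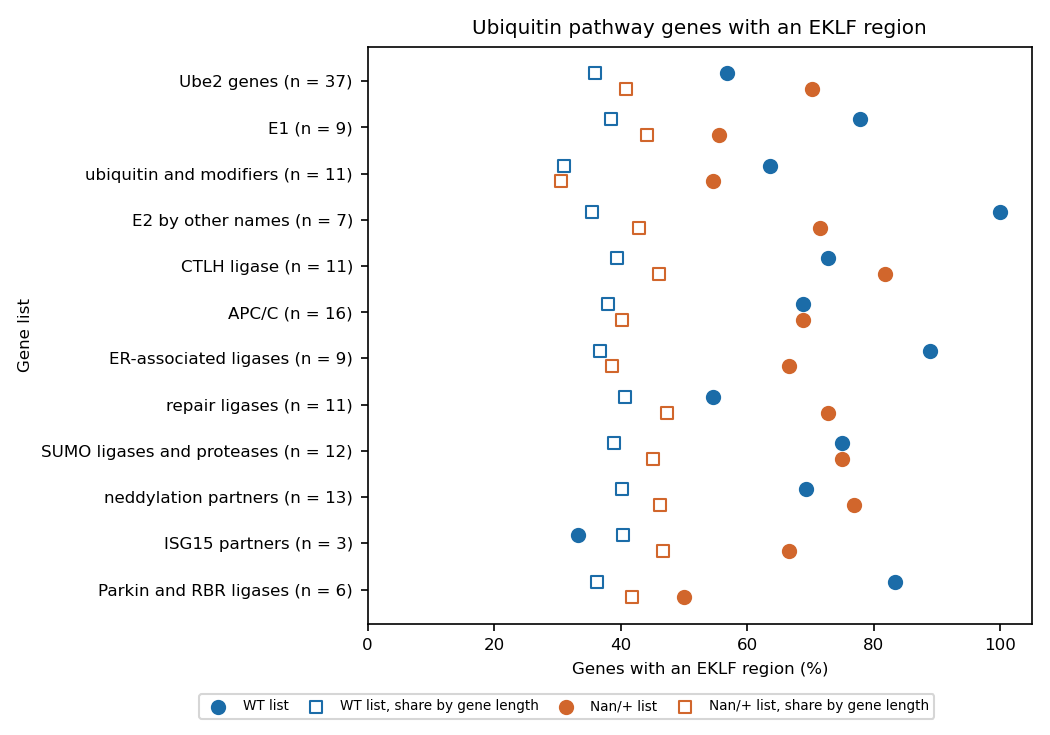
Percentage of genes with an EKLF region in the WT list (blue circles) and the Nan/+ list (orange circles) for the Ube2 genes and 11 lists of ubiquitin pathway genes, with the share by gene length (open squares) beside each. Circles lie to the right of their squares in both colours, except for the WT list at the ISG15 partners, a list of 3 genes.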

How the data were processed

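EKLF ChIP in WT and Nan/+ fetal liver was read from 1 deposited region list per genotype. Per the file headers, the authors called regions with HOMER on 3 ChIP libraries together against input (2 distinct input libraries filling 3 places), with a q of 0.01, a fold of 4 and a DESeq2 step at a false discovery rate of 0.01 and log2 fold of 2. Peak size and minimum distance were 125 and 250 bp for WT and 175 and 300 bp for Nan/+, per the file headers. The submitters' processing notes name the mm10 build with deepTools 3.5, SAMtools 1.1, Bowtie2 2.1 and bcl2fastq 2.17. In the deposited files every score is 1, so the score was not used as a strength.

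Coordinates are printed counted from 1. Of 21900 protein-coding genes in the RefSeq table (GRCm38.p6), 21521 were used; 110 on other scaffolds and 269 on unplaced sequence, Y or mitochondrial DNA were dropped. Shares over all genes include the Ube2 genes. Length weighting averaged the share in each of 10 length strata by the number of Ube2 genes in it. Python 3.11.15, pandas 2.3.3, scipy 1.17.1 and matplotlib 3.10.9 were used, and the counting was tested on simulated data with known answers. No significance test was run, because each genotype gave 1 pooled list.

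The genes, lists and alternatives were chosen with earlier results of these data known. Of 111 pathway entries 108 distinct genes outside the Ube2 family were found, and Cdc34b, an older symbol of Ube2r2, was left out. Genes named with values were the 8 with most regions, the 6 with the largest difference between lists, those in 1 list alone with over 1 region or over the smallest width, those with overlapping regions, and Ube2o, Ube2l6, Ube2h and Ube2c; others are named to account for the rest of the family, of which some values are not reported here. From each pathway list up to 3 genes with most regions and up to 2 with the largest difference could be named, and Maea, outside that rule, was named for its role. Promoter windows matched 30 of 37 Ube2 genes by gene identifier and chromosome. The CBP, H3K27ac, RNA polymerase II and ATAC samples were not analysed here.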

Additional observations from a re-analysis of the deposited data

How the results depend on the processing

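Each genotype had 1 pooled list, so leaving out a replicate could not be run. No paired analysis was possible because the replicates of a genotype were pooled before calling. Of 65 alternatives, 51 kept the count within 1.5 times of the reported one and 14 did not. With Nan/+ regions of the smallest width set aside, Nan/+ regions at Ube2 genes fell from 79 to 47 and genes in WT alone went from 4 to 7. Then 20 of 37 Ube2 genes had a Nan/+ region, against 25.1% of all genes. With a flank of 50 kb there were 86 WT and 134 Nan/+ regions, 26 genes in both lists, 1 in WT alone and 5 in Nan/+ alone. At that flank 27 of 37 Ube2 genes had a WT region and 31 a Nan/+ region, against 50.0% and 57.3% of all genes. In the gene body only there were 31 WT and 48 Nan/+ regions and 10 genes in both lists. There 15 Ube2 genes had a WT region and 19 a Nan/+ region, against 18.1% and 23.5% of all genes. For regions in both lists or in 1 list alone, shares over all genes at these settings are not reported here. A reciprocal overlap of 50% left 7 of the 12 overlapping WT regions and 7 of the 13 overlapping Nan/+ regions, and centres within 250 bp left 8 of the 13. Overlap with the gene end itself left 8 of the 17 genes with a Nan/+ region there and 12 of the 16 with a WT region. Counting starts by a region centre within 1 kb was chosen after seeing the data and stayed within 1.5 times. The list lengths and calling settings differ between the genotypes, and with no tag counts deposited for the regions, weak and absent occupancy look alike.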

Other observations

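Non-coding entries named after the family were outside the rule. Of 5 such entries, Ube2d-ps, listed as a lncRNA gene on chromosome 11, had 1 WT and 2 Nan/+ regions, and Ube2l3-ps1, Ube2uos, Ube2n-ps1 and Ube2nl had 0 in both lists.

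Regions at cell type markers were counted in the same way, as occupancy and not expression. All 7 erythroid markers (Slc4a1, Alas2 and Klf1 among them) had regions in both lists, with 27 WT and 21 Nan/+ regions in all. Shares over all genes, weighted by gene length, would give 2.48 of these 7 genes in WT and 2.46 in Nan/+. Of 4 hepatoblast markers 2 had regions in each list, near the length-weighted 1.53 in WT and 1.64 in Nan/+. Afp, the fetal serum protein gene, had 2 WT and 7 Nan/+ regions. Of 4 macrophage markers 1 (Cd68) had a region in each list, against a length-weighted 1.38 in WT and 1.65 in Nan/+. Among 3 endothelial and 3 lymphoid markers the WT list had a region at 0, and the Nan/+ list had 1 each at Kdr and Il7r. Length-weighted values were 1.24 and 1.47 for the endothelial and 1.04 and 1.05 for the lymphoid markers, WT first. The cell type label could not be checked against expression here.

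Some regions of one list lay close to a region of the other without overlapping it. At Ube2 genes 6 of the 38 WT regions that overlapped no Nan/+ region had one within 1 kb (15.8%; 12.9% over all genes). The same held for 8 of the 66 such Nan/+ regions (12.1%; 7.26% over all genes). The closest was the pair 20 bp apart at Ube2c.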
